A study of Mus musculus with 2 samples.

Results

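Small pre-B and immature B cells are the B cell precursors between the last divisions of the pre-B stage and the surface IgD of the mature B cell. They were taken from 10× Chromium 3′ single-cell RNA-seq as barcodes that had 500 genes or more, no more than 10% of their unique molecular identifiers (UMIs) from mitochondrial genes, and at least 3 UMIs of *Cd79a* plus *Cd79b*, the signalling chains of the B cell receptor. They had at most 1 UMI of the mature genes *Ighd* plus *Fcer2a*, under 2 of the surrogate light chain genes *Vpreb1* plus *Igll1*, under 2 of the cycling genes *Mki67* plus *Top2a*, 0 of *Cd3e*, under 2 of *Siglech* and under 5 of *Jchain*. Of 5859 barcodes in all, 379 met these limits, 183 of 1872 in the intact library and 196 of 3987 in the callus library. These genes chose the cells, so their values below are descriptions and not results.

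The study sorted tdTomato+ cells of Clec3b.creERT2; Ai14.R26.tdTomato mice, in which tamoxifen lets the Cre driven by *Clec3b* switch on tdTomato permanently in Clec3b-expressing cells and their descendants. The aim was to compare this lineage between unbroken and healing bone. The mice received tamoxifen 2 weeks before a stabilized femoral fracture at 6 weeks of age, and both kinds of tissue were taken from 3 male littermates 3 weeks after surgery. The intact group (no fracture) is intact femoral diaphyses with their surrounding muscle and the callus group (fracture) is fracture calluses, each pooled over mice before digestion and sorting. Haematopoietic cells were not the aim of the sort. According to the paper, the haematopoietic populations among the sorted cells lacked appreciable tdTomato expression. Its authors therefore regarded them as artifacts of flow cytometry and excluded them. Whether the B-lineage cells described below carried tdTomato RNA was not examined.

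Each condition is 1 library, so no test between conditions was possible. Intervals are 95% exact intervals for counting error only. Although the mice are given as male, *Xist*, the RNA of the inactive X chromosome, was found with all UMIs counted in 76.5% of the 183 intact and 90.3% of the 196 callus small pre-B and immature B cells, and the 4 Y-linked genes counted had 0 UMIs in both. The libraries shared 1 barcode, which was a small pre-B or immature B cell in the intact library and none in the callus library. No doublet caller was applied. Instead, cells with many UMIs of other cell types were left out as an alternative chosen after seeing the data, called the narrower set, with 179 intact and 177 callus cells. The 4 intact cells left out held 4.15% of the UMIs, but the 19 callus cells held 32.8%, together with 96.1% of the neutrophil, 98% of the fibroblast and 97.1% of the erythroid list UMIs of the callus cells. The comparison of libraries is given for all cells and for the narrower set.

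B cells develop in the bone marrow. A pro-B cell joins a heavy chain gene with the RAG recombinase, tests the product with the surrogate light chain as a pre-B cell receptor, divides a few times, and leaves the cycle as a small pre-B cell that opens RAG again to join a kappa or lambda light chain gene. Once a complete IgM reaches the surface the cell is called immature, and it takes up IgD, MHC class II and homing receptors as it matures.

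Small pre-B and immature B cells were the largest of 3 B-lineage groups in the intact library but not in the callus library. B-lineage cells are all barcodes that pass the gene, mitochondrial, *Cd79a* plus *Cd79b*, *Cd3e*, *Siglech* and *Jchain* limits, and there were 276 in the intact and 662 in the callus library. The 183 intact cells were 66.3% (60.4 to 71.9%) of them and the 196 callus cells 29.6% (26.2 to 33.2%). Mature IgD B cells, with 2 or more UMIs of *Ighd* plus *Fcer2a*, were 18.8% (14.4 to 23.96%) and 31.1% (27.6 to 34.8%). Pro-B and cycling pre-B cells, with 2 or more UMIs of the surrogate light chain or cycling genes, were 14.9% (10.9 to 19.6%) and 39.3% (35.5 to 43.1%). Among all 1207 intact and 3295 callus cells kept, the share of small pre-B and immature B cells was 15.2% (13.2 to 17.3%) against 5.95% (5.17 to 6.81%). The intervals of the B-lineage shares of each group did not overlap between the libraries, but a pool of mice is 1 sample, dissection and sorting can set such shares, and their part in the difference was not tested.

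**Figure D1:**
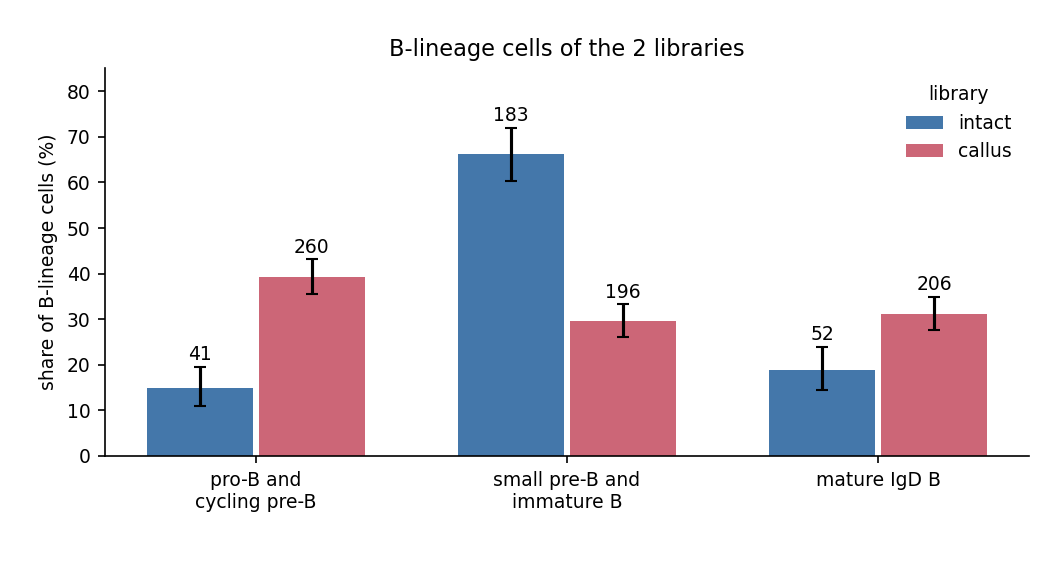
Share of B-lineage cells (vertical axis, %) in 3 groups of the intact and callus libraries. Bars are shares with exact 95% binomial intervals for counting error, and the numbers above them are cells. Small pre-B and immature B cells made up 66.3% of the intact and 29.6% of the callus B-lineage cells.

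The cells were shallow, with medians alike between libraries and a longer upper tail in the callus, where the 90th percentile was 5359 UMIs against 3644. The median was 2763 UMIs (894 to 10682) and 1332 genes in the intact library and 2893 UMIs (1277 to 39905) and 1404.5 genes in the callus library, in which the cells left out of the narrower set had a median of 12328. Levels are given as CPM, a gene's share of the summed UMIs of a group in parts per 1000000. The kit reads 3′ ends, so a level is compared between groups of cells and not between genes. Because deeper cells show more genes, shares of cells with a UMI are given after drawing 2000 UMIs from each cell, called thinning, which left out 17 intact and 11 callus cells, unless said otherwise.

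At the limits of the rule, 2 intact and 2 callus cells had exactly 3 UMIs of *Cd79a* plus *Cd79b*, against a median of 15 and 16. A further 3 intact and 15 callus cells met every other limit with 2 UMIs. For *Ighd* plus *Fcer2a*, 160 intact and 147 callus cells stood at 0, 23 and 49 stood at 1, and just outside, 9 and 42 mature cells stood at 2. A single UMI of the surrogate light chain or cycling genes was found in 7 intact and 24 callus cells. More callus than intact cells thus stood next to a limit.

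The label comes with 4 genes that mark these cells and were not part of the rule, *Fcrla*, an intracellular Fc receptor-like protein of B cells, *Spib* and *Bach2*, transcription factors of the B lineage, and *Cecr2*, a chromatin remodelling factor. They were chosen with earlier results of these data known, so their values describe the cells and cannot check the label. *Fcrla* stood at 1022 CPM (937 to 1113) in the intact and 664 CPM (608 to 724) in the callus cells. It stood at 422 and 289.6 CPM in mature IgD B cells and at 344 and 88.9 CPM in pro-B and cycling pre-B cells. *Cecr2* separated the small pre-B and immature cells most from mature cells, with 624 CPM (558 to 696) and 571 CPM (519 to 627) against 55.8 and 76.9 CPM, while pro-B and cycling cells had 259 and 214 CPM. *Bach2* stood at 670.0 and 520.5 CPM against 254 and 246 CPM in mature and 265 and 119 CPM in pro-B and cycling cells. *Spib* stood at 551 and 524 CPM against 179.9 and 149 CPM in mature and 131 and 62.8 CPM in pro-B and cycling cells. Each gene was thus higher here than in either neighbour, in both libraries. After thinning, all 4 markers were found together in small pre-B and immature B cells in 22.9% of 166 cells (16.7 to 30.04%) in the intact and 34.1% of 185 (27.3 to 41.4%) in the callus library. In mature cells they were together in 0% of 48 and 0.524% of 191. In pro-B and cycling cells they were together in 7.50% of 40 (1.57 to 20.4%) and 2.36% of 254 (0.872 to 5.07%). The intact interval of pro-B and cycling cells thus overlapped that of the small pre-B and immature cells. Unthinned, the shares of the small pre-B and immature cells were 38.3% and 45.9%. Those of mature cells were then 1.92% of 52 and 3.88% of 206. In pro-B and cycling cells they were 34.1% of 41 (20.1 to 50.6%) and 19.2% of 260 (14.6 to 24.6%), so the intact intervals overlapped. In neutrophils, which should lack these genes, 0 of 293 and 0 of 692 thinned cells had all 4.

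Of the general B-lineage genes, *Ebf1*, a transcription factor that specifies the lineage, stood at 5207 CPM in the intact and 3579.8 CPM in the callus cells and had a UMI in 97.6% of 166 and 96.2% of 185 cells after thinning (99.5% and 97.96% without it). *Ighm*, the IgM heavy chain, stood at 4376 CPM and 4379.9 CPM and had a UMI in 100% of 166 and 97.8% of 185 cells after thinning (100% and 98.98% without it). *Pax5*, which keeps B cells committed, was found in 53.01% of 166 (45.1 to 60.8%) intact and 60.5% of 185 (53.1 to 67.6%) callus cells after thinning (59.6% and 72.4% without it), and *Ms4a1* in 38.6% of 166 (31.1 to 46.4%) and 40% of 185 (32.9 to 47.4%) (39.9% and 44.9% without it). *Ighg1* had 0 UMIs in either library. *Cd93*, a surface protein of immature B cells, stood at 207 CPM and 258 CPM, against 18.6 and 37.7 CPM in mature cells. *Il2ra*, the CD25 chain of small pre-B cells, was found in 13.3% of 166 (8.50 to 19.4%) and 18.9% of 185 (13.5 to 25.3%) cells after thinning. Mature cells had 0% of 48 and 0.524% of 191. Pro-B and cycling cells had 7.50% of 40 (1.57 to 20.4%) and 1.57% of 254 (0.431 to 3.98%), so the intervals of the 2 groups overlapped in the intact library. *Clec3b* itself, whose promoter drives the Cre, had 1 UMI in the intact cells and 49 in the callus cells, of which 1 was in the narrower set.

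**Figure D2:**
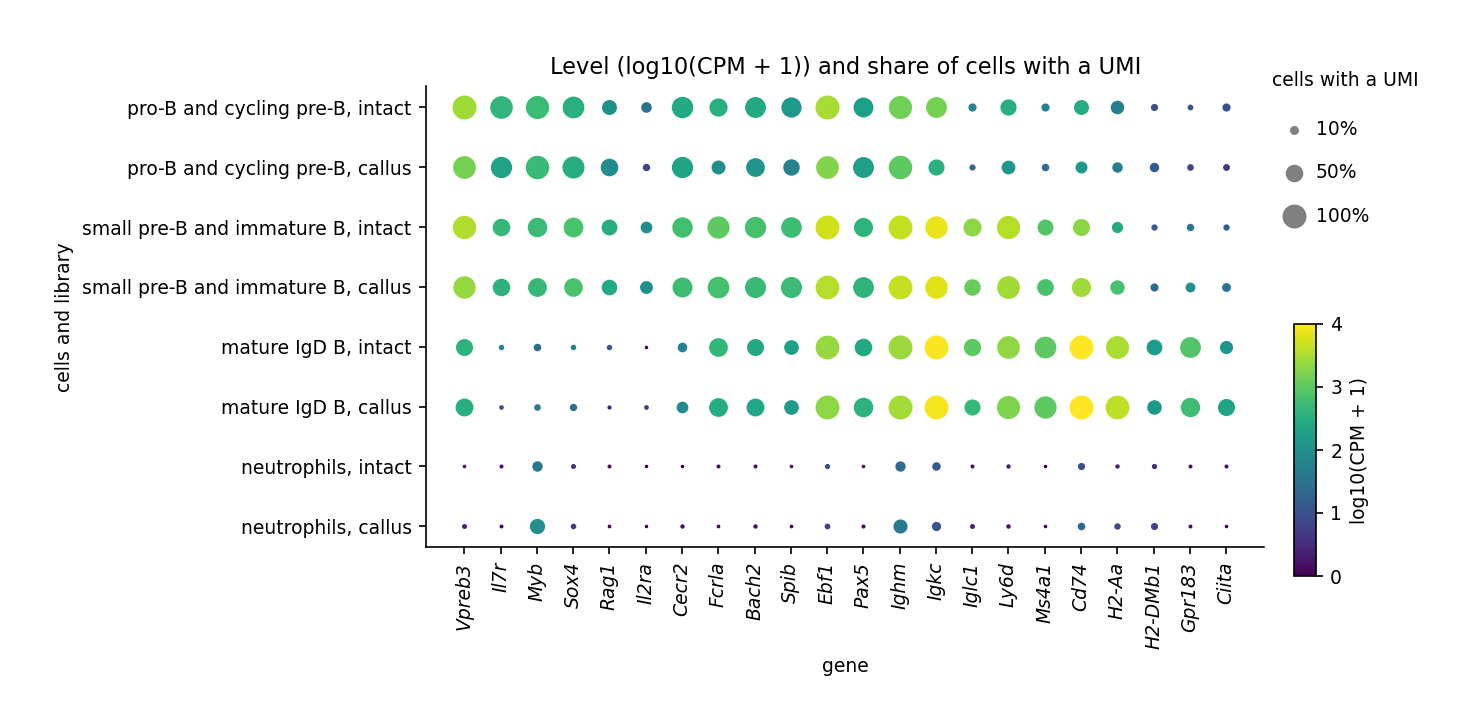
Level (colour, log10 of CPM plus 1) and share of cells with a UMI (dot area, unthinned) of 22 genes (horizontal axis) in 3 groups of B-lineage cells and in neutrophils of each library (vertical axis). *Cecr2*, *Fcrla*, *Bach2* and *Spib* were higher in small pre-B and immature B cells than in both other B-lineage groups of the same library.

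Light chain genes were not part of the rule. The constant gene of kappa is *Igkc*, on chromosome 6 (70726435 to 70726966, GRCm38, forward strand), and those of lambda are *Iglc1*, *Iglc2* and *Iglc3* on chromosome 16, reverse strand (*Iglc1* from 19061618 to 19062071, *Iglc2* from 19198396 to 19200351 and *Iglc3* from 19065230 to 19065681). The last 90 coding bases of the lambda genes, from GENCODE transcripts, are shown because reads of a 3′ kit fall towards that end of the message. The untranslated bases after them, where such reads also fall, were not compared. Capitals mark every position at which the 3 genes are not all the same.
Iglc1: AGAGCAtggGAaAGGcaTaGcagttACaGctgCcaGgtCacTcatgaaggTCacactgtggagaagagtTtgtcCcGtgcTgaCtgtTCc
Iglc2: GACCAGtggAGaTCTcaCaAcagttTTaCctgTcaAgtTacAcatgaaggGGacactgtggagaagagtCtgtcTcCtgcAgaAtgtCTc
Iglc3: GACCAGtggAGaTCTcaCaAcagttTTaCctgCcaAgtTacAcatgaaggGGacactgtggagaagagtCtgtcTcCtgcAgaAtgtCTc
*Iglc2* and *Iglc3* differ at 1 of these 90 bases and *Iglc1* differs from them at 29 and 28, so reads within these bases may not tell *Iglc2* from *Iglc3*. How the counting split the UMIs of this pair was not tested. The 3 genes are summed below except where a gene is named, and values of *Iglc2* or *Iglc3* alone are uncertain.

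Most small pre-B and immature B cells carried a light chain constant region. The sum of *Igkc*, *Iglc1*, *Iglc2* and *Iglc3* had a median of 28 UMIs per cell in the intact (percentiles 10 and 90 at 8 and 71) and 30 UMIs in the callus library (8 and 78). At least 10 UMIs were found in 156 of 183 intact (85.2%, 79.3 to 90.05%) and 170 of 196 callus cells (86.7%, 81.2 to 91.1%). From 3 to 9 UMIs were found in 23 and 20 cells and at most 2 in 4 and 6, and all 6 of the latter callus cells are outside the narrower set. Mature cells reached 10 UMIs in 96.2% of 52 and 96.1% of 206, and pro-B and cycling cells in 48.8% of 41 and 19.2% of 260. No neutrophil had 10 light chain UMIs, although 9.90% of 303 intact and 12.6% of 720 callus neutrophils had at least 1. Their median depths were 5713 and 8464.5 UMIs, and the part of free RNA in the light chain counts was not tested.

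Cells in which lambda made at least 80% of the light chain UMIs took a larger share of small pre-B and immature B cells than of mature cells of the same library. Of the cells with at least 10 light chain UMIs, kappa made at least 80% of the UMIs in 73 of 156 intact (46.8%, 38.8 to 54.9%) and 86 of 170 callus cells (50.6%, 42.8 to 58.3%). Lambda made at least 80% in 34 intact (21.8%, 15.6 to 29.1%) and 25 callus cells (14.7%, 9.75 to 20.9%). Among mature IgD B cells the lambda counts were 0 of 50 in the intact library, whose upper limit from 3 counts is 6%, and 6 of 198 (3.03%, 1.12 to 6.48%) in the callus library. The remaining 49 intact and 59 callus small pre-B and immature cells had both chains, neither of them at 80%, as did 30 of 50 and 115 of 198 mature cells. Kappa made at least 80% in 20 of 50 (40%, 26.4 to 54.8%) and 77 of 198 (38.9%, 32.1 to 46.1%) mature cells, whose intervals overlap those of the small pre-B and immature cells. The median over all cells was 6 lambda UMIs in both libraries, against 8.5 and 8 in mature cells. *Iglc1* was the lambda gene at least 2-fold higher than in mature cells in both libraries, with 2092 CPM (1970.1 to 2220.2) and 1170.4 CPM (1095 to 1249) against 1011 and 475 CPM. How many of the mixed cells hold the other chain as free RNA or as part of a doublet was not tested.

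**Figure D3:**
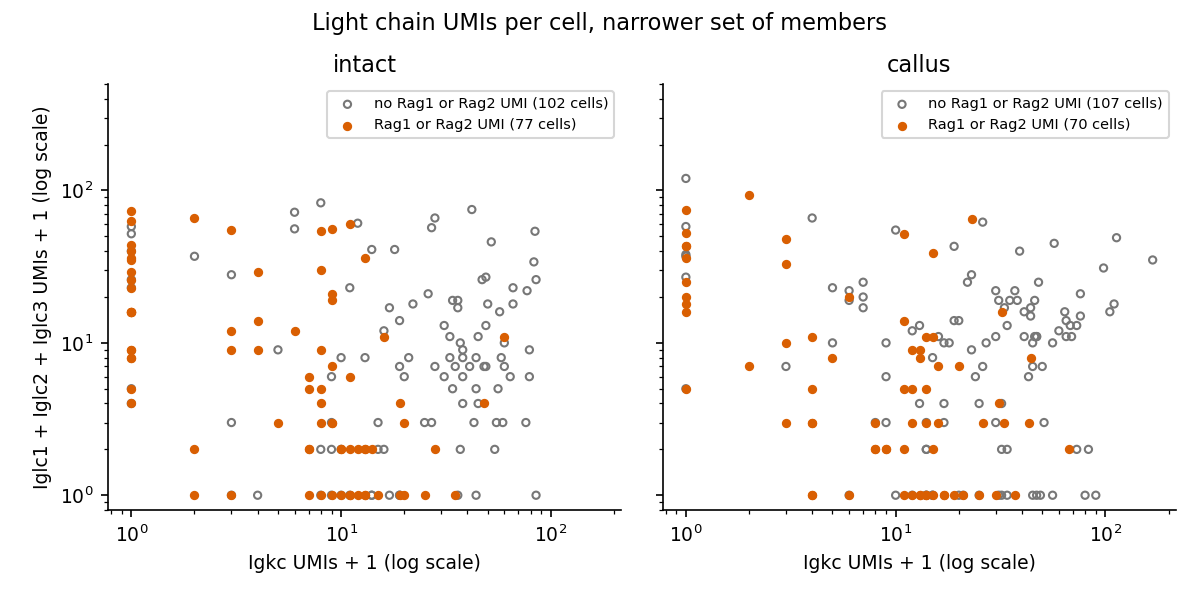
Kappa UMIs (*Igkc* plus 1, horizontal axis, log scale) against lambda UMIs (*Iglc1*, *Iglc2* and *Iglc3* plus 1, vertical axis, log scale) in each cell of the narrower set, intact on the left and callus on the right. Each point is 1 cell, and filled points are the 77 intact and 70 callus cells with a UMI of *Rag1* or *Rag2*, which lie at lower kappa counts (medians 7 and 10.5) than the other cells (27 and 29).

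The variable segments in use were read from fewer UMIs, because they lie at the 5′ end of the light chain message, far from the end the kit reads. *Igkv* genes held 358 UMIs in 138 of 183 intact cells and 176 UMIs in 101 of 196 callus cells, spread over 62 and 49 of 160 genes. *Iglv* genes held 106 and 46 UMIs, and *Ighv* genes 105 and 49. The last 60 coding bases of the 6 *Igkv* genes with most UMIs and of *Iglv1* are shown, since they end the part of the antigen binding loop that the segment itself encodes. Capitals mark the codon of the conserved cysteine at which that loop begins, and positions are those of GRCm38.
Igkv12-46 (chr6:69764523-69765022, reverse strand): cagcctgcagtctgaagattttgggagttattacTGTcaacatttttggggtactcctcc
Igkv1-135 (chr6:67609713-67610508, forward strand): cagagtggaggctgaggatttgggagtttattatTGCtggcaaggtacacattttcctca
Igkv1-117 (chr6:68121046-68121827, forward strand): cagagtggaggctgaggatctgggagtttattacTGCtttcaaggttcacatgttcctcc
Igkv12-44 (chr6:69814631-69815154, reverse strand): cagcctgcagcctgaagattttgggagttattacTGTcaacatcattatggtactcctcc
Igkv19-93 (chr6:68736297-68736780, reverse strand): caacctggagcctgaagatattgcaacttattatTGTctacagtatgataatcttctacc
Igkv1-35 (chr6:70010949-70011673, reverse strand): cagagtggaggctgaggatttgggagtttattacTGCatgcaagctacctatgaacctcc
Iglv1 (chr16:19085017-19085500, reverse strand): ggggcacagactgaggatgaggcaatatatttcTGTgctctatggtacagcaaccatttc
The kappa genes end 23 bases after this codon and *Iglv1* ends 24 bases after it. *Igkv12-46* had 39 UMIs in 29 intact and 23 UMIs in 20 callus cells, *Igkv1-135* had 46 in 30 and 15 in 12, and *Igkv1-117* had 37 in 28 and 20 in 17. *Iglv1* had 75 UMIs in 50 intact and 34 UMIs in 27 callus cells. The UMIs of each segment were thus spread over many cells. Among cells with at least 2 UMIs of an *Igkv* gene, 42 of 49 intact and 15 of 17 callus cells had only 1 such gene. A rearranged gene and a germline transcript cannot be told apart in these counts, and *Igkv* genes are near copies of each other, so single genes are uncertain.

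A large minority of the cells carried a transcript of the recombinase. *Rag1*, its catalytic subunit, stood at 295 CPM (250.1 to 345) in the intact and 258 CPM (223 to 296) in the callus cells, and at 351 CPM in the callus cells of the narrower set. *Rag2*, its partner, had 14 and 9 UMIs (26.8 CPM and 11.7 CPM). After thinning, a UMI of either gene was found in 37.3% of 166 (29.98 to 45.2%) in the intact and 30.8% of 185 (24.2 to 38%) in the callus library, against 43.2% and 38.3% unthinned. Mature cells had 2.08% of 48 (0.0527 to 11.1%) and 0.524% of 191 (0.0133 to 2.88%), neutrophils 0.341% of 293 and 0% of 692, and pro-B and cycling cells, which also rearrange genes, 27.5% of 40 (14.6 to 43.9%) and 27.95% of 254 (22.5 to 33.9%). Unthinned, pro-B and cycling cells had 41.5% of 41 and 56.2% of 260 (49.9 to 62.3%), so in the callus the order of the 2 groups turned. *Dntt*, the enzyme that adds bases to heavy chain joints at the pro-B stage, had 2 UMIs in the intact cells and 48 in the callus cells, of which 0 remained in the narrower set. *Xrcc6*, the Ku70 protein of end joining, stood at 287 CPM and 175 CPM, against 0 UMIs in the intact mature cells and 28.7 CPM in those of the callus. *Lig4*, the ligase that seals the joint, stood at 89.97 CPM and 54.4 CPM, against 0 UMIs and 6.03 CPM.

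The promoter of *Rag1* is shown because UMIs of this gene or *Rag2* are used below to split the cells. It lies at chr2:101649483-101649782 of GRCm38.p6 on the reverse strand and runs, in RefSeq, from 250 bases before the start to 50 after it. Capitals mark E-boxes, the kind of sequence that E2A proteins bind, in a palindromic form with the letters CAGCTG and in a form whose letters are CAGGTG, which read as CACCTG on the opposite strand.
Rag1 promoter: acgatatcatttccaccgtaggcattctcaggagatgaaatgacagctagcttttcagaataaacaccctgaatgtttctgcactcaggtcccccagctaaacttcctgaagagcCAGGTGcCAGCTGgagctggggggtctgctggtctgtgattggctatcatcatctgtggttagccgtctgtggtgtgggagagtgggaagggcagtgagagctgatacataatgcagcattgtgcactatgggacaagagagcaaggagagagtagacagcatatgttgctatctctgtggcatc
The palindrome begins 128 bases and the other form 135 bases before the start, with no overlap. Of 32851 promoters of this length, 16.3% hold the palindrome, 20.2% the other form on either strand and 32.9% at least 1 of them, so such a match is common. The windows of *Fcrla*, *Sox4*, *H2-Aa* and *H2-Eb1* hold 1 match each, and those of *Rag2*, *Spib*, *Bach2*, *Il2ra* and *Il7r* hold none.

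Within small pre-B and immature B cells, the share of cells with a recombinase UMI and the levels of *Sox4*, *Il7r* and *Cecr2* were lowest where light chain UMIs were most, and *Ms4a1* and *Cd74* were highest there. Cells of the narrower set were split at 3, 10, 20 and 50 light chain UMIs, which gave 23, 48, 53 and 51 intact and 19, 42, 63 and 53 callus cells, beside 4 intact cells below 3 UMIs. Light chain genes were left out of the totals of these CPM, and values are given in order of rising light chain UMIs. After thinning, *Rag1* or *Rag2* was found in 50%, 61.9%, 27.7% and 16.3% of the intact and in 61.1%, 55%, 26.8% and 13.5% of the callus cells. The intervals of the 2 lower and the 2 upper bins overlap within each library. In the intact library the lowest of the 10 to 19 bin (45.6%) is above the highest of the bin from 20 UMIs (42.6%). In the callus they overlap (38.5% and 40.3%). The summed level of *Rag1* did not follow the share step by step, with 411, 415, 398 and 75.8 CPM in the intact and 581, 610.0, 361 and 96.9 CPM in the callus cells.

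*Sox4*, a transcription factor of lymphoid precursors, stood at 776, 1206, 607 and 296 CPM in the intact and at 2130.3, 1635, 761 and 188 CPM in the callus cells. *Il7r*, the receptor for the cytokine that early B cells grow on, stood at 639, 705, 412 and 248 CPM and at 852, 898, 428 and 157 CPM. *Cecr2* stood at 943, 901, 621 and 303 CPM and at 1375, 1169, 778 and 376 CPM. These genes were thus lowest in the cells with most light chain. *Ms4a1*, the surface protein CD20, was highest there, with 15.2, 227, 949.6 and 1715 CPM and at 0, 119, 975 and 1999 CPM. *Cd74*, the invariant chain of class II, stood at 228, 682, 2521 and 3898 CPM and at 232, 813, 3788 and 5694 CPM. *Ly6d*, a surface marker of the B lineage, stood at 2693, 2225, 4029 and 5565 CPM and at 1898, 1982, 3280.3 and 5288 CPM. *Ighm* moved far less, with 3911, 4105, 4951 and 4856 CPM and at 5616, 5676, 5884 and 6602 CPM. The median depth per bin was between 2641 and 2805 UMIs in the intact and between 2315 and 2981 in the callus library. *Klf2*, a transcription factor of quiescence and migration, had no such order in the intact cells, with 2176, 2624, 2891 and 2617 CPM, and was lowest in the last bin in the callus cells, with 2982, 2728, 2728 and 1811 CPM.

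**Figure D4:**
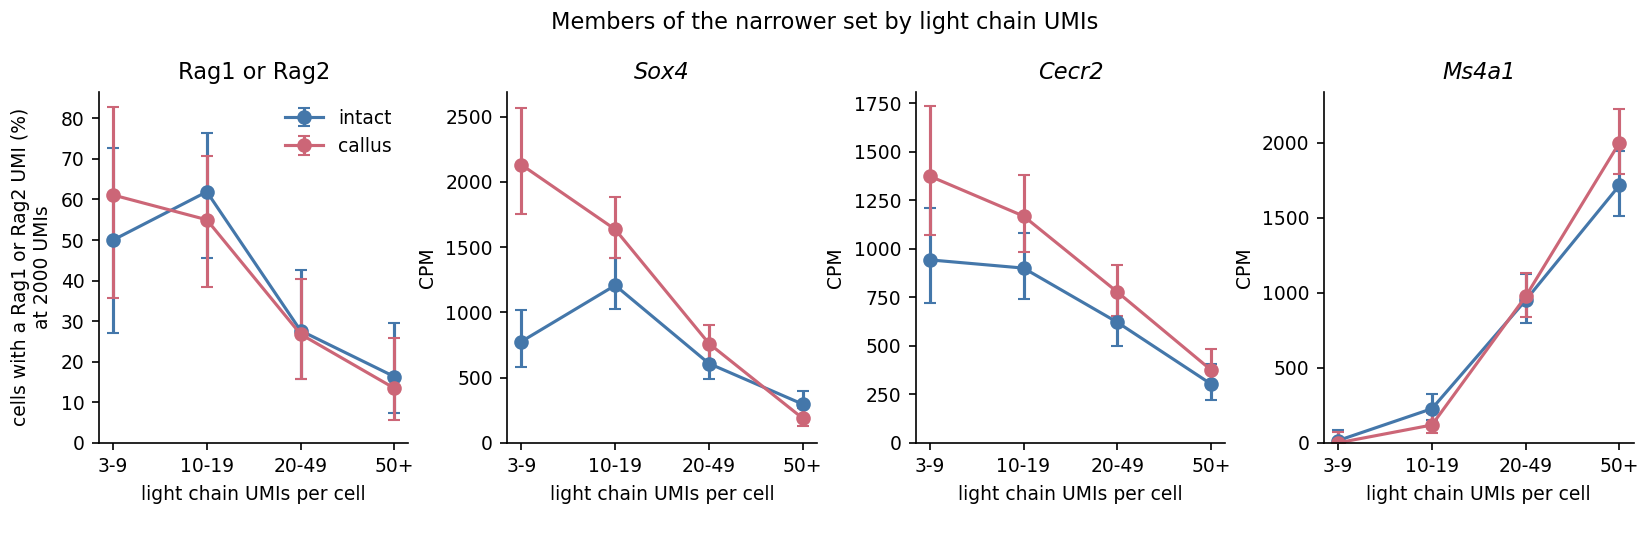
Share of cells with a *Rag1* or *Rag2* UMI after thinning to 2000 UMIs (first panel, %) and level of *Sox4*, *Cecr2* and *Ms4a1* (CPM) in cells of the narrower set grouped by light chain UMIs (horizontal axis), for the intact and callus libraries. Bars are exact 95% intervals for counting error. *Ms4a1* was higher in each step up to 1715 and 1999 CPM in cells with at least 50 light chain UMIs, where *Rag1* or *Rag2* was found in 16.3% and 13.5% of the cells.

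The cells with a *Rag1* or *Rag2* UMI were compared with the other small pre-B and immature B cells of the same library. In the narrower set, 77 intact and 70 callus cells carried one, with median depths of 2537 and 2612.5 UMIs, against 2834.5 and 2867 in the 102 and 107 other cells. Because this split is made on detection in shallow cells, cells without a UMI may also express the genes. Of 3478 genes with enough UMIs, 74 were at least 2-fold higher in both libraries (2.13%) and 83 at least 2-fold lower in both (2.39%).

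Genes higher in the Rag carrying cells included 3 of 8 early B progenitor genes (*Lef1*, *Sox4* and *Il7r*) and 1 of 6 V(D)J recombination genes (*Xrcc6*), beside 2.13% of all genes. Of either list, 0 were lower. *Sox4* stood at 1167 against 430.0 CPM in the intact library and 1657 against 466 CPM in the callus library, ratios of 2.71 and 3.55. *Il7r* stood at 709 against 306 CPM in the intact library and 823 against 289 CPM in the callus library, ratios of 2.32 and 2.84. *Xrcc6* stood at 478 against 161 CPM in the intact library and 393 against 140.1 CPM in the callus library, ratios of 2.96 and 2.81. *Rrm2b*, the ribonucleotide reductase subunit of non-dividing cells and of DNA repair, had ratios of 2.97 and 2.52, and *Asf1a*, a histone chaperone, of 3.12 and 2.49. *Cecr2* had ratios of 2.42 and 2.65, while *Fcrla*, *Spib* and *Bach2* did not reach 2-fold in both libraries. *Il12a*, a cytokine subunit, had ratios of 3.11 and 3.22, *Gpam*, an enzyme of glycerolipid synthesis, of 2.41 and 5.37, and *Pde4b*, a cyclic AMP phosphodiesterase, of 2.61 and 3.16. *Cacna1e*, a calcium channel subunit, had ratios of 3.82 and 2.80, *Aff1*, a transcription elongation factor, of 2.56 and 2.58, and *Reln*, a secreted glycoprotein, of 2.42 and 2.84. *Spg21* (2.72 and 2.58) and the unnamed transcripts *1810059H22Rik* (3.42 and 4.59) and *Gm37065* (3.81 and 2.80) complete the 15 highest.

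Genes lower in the Rag carrying cells included many of antigen presentation and of the mature surface. *H2-Eb1*, a class II beta chain, stood at 9.85 against 477 CPM in the intact library and 31.5 against 880.5 CPM in the callus library. *H2-Aa*, a class II alpha chain, stood at 34.5 against 454 CPM in the intact library and 83.9 against 1082 CPM in the callus library. *Cd74* stood at 113 against 3399.6 CPM in the intact library and 435 against 4987 CPM in the callus library. These are ratios of 0.0207 [0.00248 to 0.0760] and 0.0357 for *H2-Eb1*, 0.0760 and 0.0776 for *H2-Aa* and 0.0333 and 0.0873 for *Cd74*. *Ms4a1* stood at 59.1 against 1354 CPM in the intact library and 126 against 1502 CPM in the callus library. *Ifi30*, a thiol reductase of antigen processing, had ratios of 0.170 and 0.121, *Fcmr*, the receptor for IgM, of 0.183 and 0.139, *Bank1*, a B cell receptor adaptor, of 0.195 and 0.135, *Ptpn6*, the phosphatase SHP-1, of 0.258 and 0.170, and *Cd52* of 0.221 and 0.188. *Bcl11a*, a transcription factor, had ratios of 0.228 and 0.181, *Ccnd2*, cyclin D2, of 0.195 and 0.269, *Lcp1*, an actin bundling protein, of 0.244 and 0.227, *Ptprj*, a receptor phosphatase, of 0.209 and 0.267, *H2-Ab1*, a class II beta chain, of 0.138 and 0.122, and *Gm31243* of 0.109 and 0.0748 [0.00880 to 0.286]. By list, 7 of 12 antigen presentation genes, 5 of 12 mature B cell genes and 4 of 20 B cell receptor signalling genes were at least 2-fold lower in both libraries, and 0 of each were higher. Over all genes, 2.39% were lower. Of 19 immediate-early and dissociation genes, 4 (*Fos*, *Fosb*, *Nr4a1* and *Ier2*) were also lower and 0 higher, and the part of cell handling was not tested. The median log2 ratio of the antigen presentation list was -1.65 in the intact and -2.37 in the callus library, beside 0.03 and 0.07 over all genes.

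Some of these differences were also seen among cells of like light chain content. At 20 to 49 light chain UMIs, *Ms4a1* stood at 133 CPM in 18 Rag carrying and 1303 CPM in 35 other intact cells, and at 118 CPM in 22 and 1380.2 CPM in 41 callus cells. *Cd74* stood at 111 against 3567 CPM and at 524 against 5329.5 CPM. *Sox4* stood at 1282 against 291 CPM and at 1301 against 482 CPM. *Il7r* was under 2-fold apart with overlapping intervals at 20 to 49 UMIs in the intact cells (553 against 341 CPM) and at 10 to 19 UMIs in both libraries (774 against 537 and 1042 against 656 CPM), and stood at 676 against 299 CPM at 20 to 49 UMIs in the callus cells. At 10 to 19 light chain UMIs, *Ms4a1* stood at 56.1 against 613 CPM in the intact and 27.4 against 263 CPM in the callus cells. *Cecr2* stood at 1149.6 against 371 and 1386 against 466 CPM at 20 to 49 light chain UMIs, but at 10 to 19 its intervals overlapped, with 931 against 818 and 1193 against 1116 CPM.

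Against mature IgD B cells, 305 of 4717 genes were at least 2-fold higher in small pre-B and immature B cells of both libraries (6.47%) and 104 at least 2-fold lower (2.20%). The rule set these groups apart, so the following are descriptions. *Rag1* was 23.8-fold and 171-fold higher in the intact (6.47 to 198) and callus (30.3 to 6781) libraries, from 154 UMIs against 2 and from 199 against 1. Intervals in square brackets stand beside the ratios that rest on 1 to 3 UMIs in a group. *Atp1b1*, a sodium pump subunit, was 21.9-fold and 42.5-fold higher, *Sox4* 14.4-fold and 23.6-fold and *Myb*, a transcription factor of blood progenitors, 21.5-fold and 12.5-fold. The 10 highest also held *Gm37065* (33.6 [5.91 to 1341] and 19.96), *Reln* (16.7 [2.87 to 670.4] and 29.6 [7.89 to 249]) and the kinase gene *Stk3* (12.04 [2.04 to 488] and 16.1). *Coq7* of ubiquinone synthesis (11.6 and 16.9), *Serinc5*, a membrane protein (10.6 and 12.5), and the mitochondrial dehydrogenase gene *Idh2* (11.4 [1.93 to 463] and 10.3) complete them. Of 9 early B progenitor genes with enough UMIs, 8 were higher in both libraries, among them *Vpreb3*, *Cd24a*, *Lef1* and *Bst1*. Genes of another tissue moved the same way, since 5 of 7 muscle genes (*Acta1*, *Ckm*, *Tnnt3*, *Mylpf* and *Myl1*) were also higher than in mature cells in both libraries. The 10 muscle genes summed to 982 and 2936 CPM against 291 and 1398 CPM in mature cells, and to 459 and 854 CPM in the narrower set, from which cells with many muscle UMIs were left out, as was not done for the mature cells. Of 8 V(D)J recombination genes, 4 were higher, *Rag1*, *Xrcc6*, *Lig4* and *Dclre1c*, the Artemis nuclease. Of 25 transcription factors, 9 were higher, among them *Tcf3*, which encodes E2A proteins, with 398 CPM and 342 CPM against 143 and 121 CPM, and *Irf4*, which drives light chain opening in pre-B cells, with 324 CPM and 246 CPM against 130.2 and 119 CPM.

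Of the lists, antigen presentation had most genes lower than in mature cells. *Ciita*, the master regulator of class II, stood at 11.5 CPM and 29.8 CPM against 112 and 220.2 CPM. *H2-Aa* stood at 274 CPM and 686 CPM against 3119.5 and 3949 CPM. The class II loading genes *H2-DMb1* (0.0772 and 0.163), *H2-DMb2* (0.138 and 0.168) and *H2-Oa* (0.128 and 0.172) and *March1*, a ubiquitin ligase that acts on class II (0.0697 and 0.151), had the ratios given. *Gpr183*, a receptor that guides B cells in lymphoid tissue, had ratios of 0.0518 and 0.173, *Zfp318*, which is needed for IgD, of 0.165 and 0.170, *Ms4a4c* of 0.0403 [0.00774 to 0.133] and 0.0526 and *Gimap5*, a lymphocyte survival protein, of 0.182 and 0.176. In all, 10 of 16 antigen presentation genes, 9 of 17 mature B cell genes, 4 of 14 homing genes and 6 of 23 immediate-early genes were lower in both libraries. Over all genes this share was 2.20%. The immediate-early gene *Nfkbia* was higher, and 0 genes of the antigen presentation, mature B cell and homing lists were. The median log2 ratio of the antigen presentation list was -2.27 and -2.16, beside 0.19 and 0.19 over all genes. The class I genes *H2-K1*, *H2-D1* and *B2m* did not reach 2-fold. *Cxcr4*, which holds precursors in the marrow, stood at 358 CPM and 219 CPM against 614 and 501 CPM. Of 11 apoptosis regulators, 3 were higher, *Bcl2l1*, which encodes the survival protein BCL-XL, *Bmf* and *Bad*, both of which promote death, and 2 were lower, *Bcl2a1b* and *Pmaip1*.

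Against pro-B and cycling pre-B cells, 551 of 5560 genes were at least 2-fold higher in both libraries (9.91%) and 416 at least 2-fold lower (7.48%), again along the limits of the rule. With the mean of CPM per cell in place of summed UMIs, 361 were higher and 421 lower. The cells set beside them here include the cycling ones, so the cell cycle genes are given as a description only. *Pclaf*, a replication factor, had 5 and 6 UMIs in the small pre-B and immature cells against 314 and 2647, *Ube2c*, a ubiquitin enzyme of mitosis, 1 and 5 against 102 and 1866, and *Birc5*, survivin, 5 and 2 against 148 and 1484. *Rrm2*, the ribonucleotide reductase subunit of dividing cells, had 0 UMIs in both libraries, against 127 and 889, ratios of at most 0.0159 and 0.0172 when 3 counts are set for the group. Also lower were *Nusap1* (0.00434 [0.000109 to 0.0245] and 0.0158 [0.00326 to 0.0464]), *Kif11* (0 and 2 UMIs against 80 and 863) and *Ccna2* (0 and 1 against 80 and 598), which act in mitosis, *Tyms* of thymidylate synthesis (0.0137 [0.000341 to 0.0801] and 0.0181 [0.00219 to 0.0658]), *Pbk*, a mitotic kinase (0.0177 [0.000437 to 0.105] and 0.0150 [0.000378 to 0.0841]), and the histone gene *Hist1h2ab* (0.00921 [0.000230 to 0.0530] and 0.0191 [0.000481 to 0.107]).

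Of the genes higher than in pro-B and cycling cells, *Iglc1* stood at 2092 CPM and 1170.4 CPM against 59.8 and 21.5 CPM, and *Ms4a1* at 817 CPM and 708 CPM against 48.4 and 22.8 CPM. *Ly6d* was 10.9-fold and 20.9-fold higher, *Fcmr* 10.9-fold and 34.3-fold, and *Rnase6*, a ribonuclease, 11.01-fold and 24.8-fold. *Iglc2* (10.4 and 35.5), *Iglc3* (13.2 and 37.9), *Iglv1* (12.6 and 28.96), *Gm20559* (12.1 [3.93 to 60.5] and 15.7) and *Gm31243*, which had 0 UMIs in the intact pro-B and cycling cells and was 20.05-fold higher in the callus, complete the 10 highest. Of the lists, 10 of 20 B cell receptor signalling genes, 11 of 14 antigen presentation genes, 13 of 15 mature B cell genes and 12 of 26 transcription factors were higher. Over all genes this share was 9.91%. The factors *Lef1* and *Erg* were lower. Of 12 early B progenitor genes, 1 (*Sox4*) was higher and 4 were lower (*Dntt*, *Vpreb2*, *Erg* and *Lef1*). Of 11 V(D)J recombination genes, 2 were higher (*Rag1* and *Dclre1c*) and 3 lower (*Dntt*, *Hmgb1* and *Hmgb2*). Of 22 immediate-early genes, 8 were higher and 0 lower. *Syk*, the kinase that the receptor recruits, stood at 563 CPM and 515 CPM against 222 and 121 CPM. All 7 muscle genes with enough UMIs were also higher, the list summing to 185 and 504 CPM in pro-B and cycling cells, from which no muscle-rich cells were left out. The part of muscle RNA in these comparisons was not tested. By summed level of class II genes such as *H2-Aa*, *H2-Ab1*, *H2-Eb1* and *Cd74*, the small pre-B and immature cells thus lay below mature and above pro-B and cycling cells. By share, *H2-Aa* was found after thinning in 12.7% of 166 intact cells, against 12.5% of 40 pro-B and cycling cells. In the callus these shares were 29.7% of 185 and 5.91% of 254. Unthinned, they were 16.9% against 26.8% in the intact and 31.1% against 14.2% in the callus library. Of interferon response genes, 1 of 10 was higher here and 0 of 9 were past 2-fold against mature cells, in either direction.

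Between the callus and intact libraries, 463 of 6717 genes were at least 2-fold higher in the callus small pre-B and immature B cells (6.89%) and 236 at least 2-fold lower (3.51%), but the highest were genes of other cells. *Col1a1*, a bone collagen, had 4 UMIs in the intact and 557 in the callus cells, a ratio of 94.2 (36.6 to 347), with 362 of the callus UMIs in 1 cell. Of the neutrophil granule genes, *S100a9* stood at 121 CPM in the intact and 4650.5 CPM in the callus library, and *S100a8* (37.03-fold), *Camp* (53.4-fold), *Ngp* (31.9-fold), *Retnlg* (26.5-fold), *Ltf* (16.3-fold) and *Lcn2* (9.09-fold) were also higher. The neutrophil list summed to 354 CPM in the intact and 11799.7 CPM in the callus cells, led by *S100a9*, and 3 callus cells held 94.96% of its UMIs. Its median was 1 and 2 UMIs per cell. The fibroblast list, led in the callus by *Col1a1*, summed to 82.3 and 2396 CPM, the muscle list, led there by *Acta1*, to 982 and 2936 CPM and the erythroid list to 2653 and 10813 CPM. A single callus cell held 8052 of the 8352 erythroid list UMIs of the callus cells. The erythroid list had a median of 7 UMIs per intact and 1 per callus cell. The monocyte and macrophage list, led by *Lyz2*, summed to 794 and 609 CPM, and to 25.96 and 61.7 CPM in the narrower set. The T cell genes *Cd3g*, *Trac*, *Cd4* and *Cd8a* had 0 UMIs in both libraries, as had *Cd3e*, which the rule fixes, and *Siglech* of plasmacytoid dendritic cells, which the rule limits. The plasmacytoid dendritic cell genes counted for the narrower set, which do not include *Irf8* and *Ly6d*, held 49 UMIs in the intact and 232 in the callus cells. Of the latter, 75.9% were outside the narrower set. At least 10 were found in 7 callus cells, of which 6 had at most 2 light chain UMIs. The full plasmacytoid dendritic cell list, which includes *Irf8* and *Ly6d*, had 5 genes with enough UMIs. Of these, *Bst2* and *Cox6a2* were at least 2-fold higher in the callus, and 0 in the narrower set.

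In the narrower set, 219 of 5943 genes were at least 2-fold higher in the callus (3.69%) and 207 at least 2-fold lower (3.48%), and *S100a9* was 1.99-fold (1.46 to 2.75) and *Col1a1* 2.17-fold (0.606 to 9.65). There the neutrophil list summed to 363 and 689.9 CPM, the fibroblast list to 81.9 and 71.3 CPM, the muscle list to 459 and 854 CPM and the erythroid list, led by *Hbb-bs*, to 2712 and 470.2 CPM. The haemoglobin genes thus turned round, since *Hbb-bs* was 3.23-fold in all cells and 0.165-fold in the narrower set, and *Hba-a1* (0.163), *Hba-a2* (0.152) and *Hbb-bt* (0.174) went with it. Most erythroid list UMIs of all callus cells lay in 1 cell, which the narrower set leaves out. The B-lineage transcription factors lay within 2-fold in all 27 cases in both versions. *Ebf1* was 0.688-fold (0.652 to 0.725) in all cells and 0.937-fold (0.887 to 0.989) in the narrower set, *Rag1* 0.874-fold (0.705 to 1.09) and 1.16-fold (0.932 to 1.45), and *Vpreb3* 0.704-fold (0.658 to 0.752) and 0.980-fold (0.915 to 1.05). The 4 markers likewise lay within 2-fold in both.

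**Figure D5:**
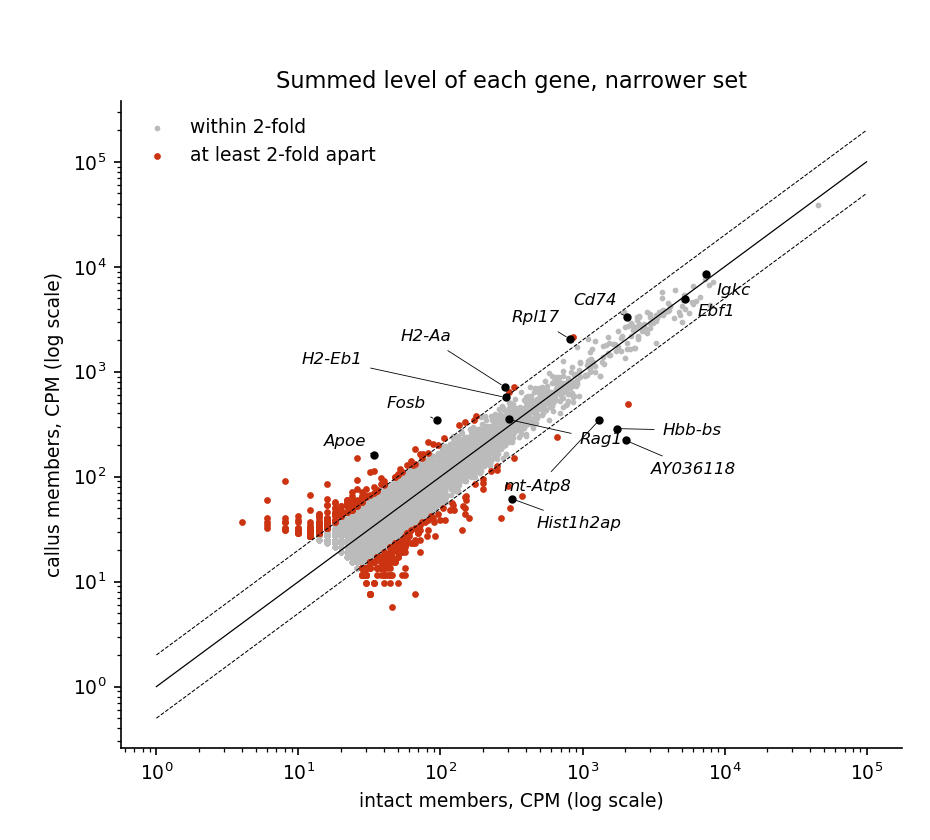
Summed level of each gene (CPM, log scales) in the intact (horizontal axis) and callus (vertical axis) cells of the narrower set. The solid line is equality and the dashed lines are 2-fold apart, and red points are the 219 higher and 207 lower genes. *Rag1*, *Ebf1* and *Igkc* lie within the lines, *H2-Aa* lies above them at 2.52-fold, and *AY036118* and *Hbb-bs* lie below.

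Of the class II genes, *H2-Aa* was at least 2-fold higher in the callus cells in both versions, and *H2-Eb1*, *H2-Ab1* and *Cd74* were under 2-fold apart in the narrower set. *H2-Aa* stood at 284 CPM in the intact and 715 CPM in the callus library in the narrower set, a ratio of 2.52 (2.07 to 3.08), and at 2.51 in all cells. *H2-Eb1* had a ratio of 1.98 (1.61 to 2.43), *H2-Ab1* of 1.72 (1.43 to 2.07) and *Cd74* of 1.60 (1.48 to 1.73). In mature cells of the same libraries the ratios were 1.27 (1.15 to 1.40) for *H2-Aa*, 0.944 (0.858 to 1.04) for *H2-Eb1*, 1.05 (0.954 to 1.17) for *H2-Ab1* and 1.12 (1.06 to 1.18) for *Cd74*. *H2-Aa* was found in 12.96% of 162 (8.21 to 19.1%) intact and 30.1% of 166 (23.3 to 37.7%) callus cells of the narrower set after thinning, against 16.8% and 31.6% unthinned and 0% of 293 and 0.578% of 692 neutrophils. Of all 15 antigen presentation genes with enough UMIs, 2 were at least 2-fold higher, *H2-Aa* and *Ciita*, the latter from 6 and 17 UMIs, and 0 were lower. In all cells, 4 of 16 were higher, with *H2-Eb1* and *H2-DMb1* besides. The share of all genes that was higher in the callus was 3.69% in the narrower set and 6.89% in all cells. In the narrower set the median log2 ratio of the list was 0.50, beside 0.03 over all genes. Of 17 mature B cell genes, 4 were higher, among them *Ighd*, which is part of the rule, *Cd55* (2.01, 1.54 to 2.63) and *Gpr183*, and 0 were lower. In all cells, 2 of 18 were higher, among them *Gpr183*, and *Cr2* was lower, from 13 and 8 UMIs. The callus cells also held more cells with a single UMI of *Ighd* plus *Fcer2a*, 49 against 23, and without such cells *H2-Aa* had a ratio of 2.39.

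Immediate-early genes were higher in part. *Fosb* stood at 93.9 CPM in the intact and 345 CPM in the callus library in the narrower set, a ratio of 3.67 (2.65 to 5.18), and *Fos* had a ratio of 2.14 (1.78 to 2.59). With *Egr1* and *Egr3* they made 4 of 23 genes of that list that were at least 2-fold higher, and *Atf3* was lower. In all cells, *Nr4a1* made them 5, and *Btg1* was lower in place of *Atf3*. Over all genes, 3.69% were higher and 3.48% lower in the narrower set, and 6.89% and 3.51% in all cells. In mature cells *Fosb* had a ratio of 2.91 (2.21 to 3.89) and in neutrophils of 1.15 (0.917 to 1.45). The part of tissue digestion, to which such genes are known to respond, was not tested. The others among the 10 highest were *Apoe*, a lipid carrier (4.77, 2.81 to 8.57, with 20 of 84 callus UMIs in 1 cell), the muscle actin gene *Acta1* (2.81, 1.87 to 4.31), the RNA helicase gene *Ddx3x* (2.61, 1.81 to 3.83), *Shisa5*, a p53 target (2.35, 1.64 to 3.41), *Macf1*, a cytoskeletal linker (2.31, 1.73 to 3.12), and *Gimap6* (2.28, 1.53 to 3.46), beside the ribosomal genes *Rplp1* and *Rpl17*.

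Several of the largest differences were shared by unrelated cells of the same libraries. *AY036118*, a non-coding transcript, stood at 2017 CPM in the intact and 222 CPM in the callus library, a ratio of 0.110 (0.0898 to 0.133), and its ratios were 0.0971 in mature cells, 0.107 in pro-B and cycling cells and 0.102 in neutrophils. *Lars2*, a mitochondrial leucyl-tRNA synthetase, had 0.365, 0.385, 0.415 and 0.316 in the same order. The higher ribosomal genes did the same, with 2.52, 2.27, 2.70 and 5.42 for *Rplp1* and 2.51, 2.08, 2.24 and 4.09 for *Rpl17*. By contrast *mt-Atp8*, a mitochondrial gene, had 0.264, 0.355 and 0.380 in the B-lineage groups and 0.992 in neutrophils. *Sec61a1*, a channel of protein secretion, had 0.253 (0.149 to 0.414) here, 0.328 in mature cells and 1.03 (0.625 to 1.80) in pro-B and cycling cells. *Gm11808* (0.272) and the replication histone *Hist1h2ap* (0.194) were also among the 10 lowest. In all cells the lowest 10 further held *Rnaset2b* (0.280), *Hist1h2ae* (0.298) and *Iglv1* (0.307). The libraries and the conditions cannot be told apart in these values.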

How the data were processed

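Per the submitters' processing notes, the authors made the deposited counts with Cell Ranger 6.0.0 on mm10 from 10x 3′ kit V3 libraries, as UMI counts per gene and barcode with no normalization. The libraries held 12112002 (intact) and 36714322 (callus) UMIs in 1872 and 3987 barcodes, with medians of 5959 and 6217. Of 32285 genes, 32235 identifiers (99.8%) were in GENCODE M21.

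UMIs were summed per library and group of cells and divided by the group's total (CPM). Intervals at 95% are exact (Poisson for levels, Clopper-Pearson for shares, conditional for ratios) and cover counting error only. No test was run, since each condition is 1 library. Genes needed 20 UMIs over both groups and UMIs in 10 cells, and 2-fold was the limit for counting a gene as higher or lower. Shares were thinned to 2000 UMIs per cell. The summing and the intervals were tested on simulated data. Python 3.11.15, numpy 2.4.6, scipy 1.17.1, pandas 2.3.3 and matplotlib 3.10.9 were used.

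The narrower set leaves out cells with at least 20 neutrophil, 5 fibroblast, 50 muscle, 50 erythroid, 20 monocyte and macrophage or 10 plasmacytoid dendritic cell UMIs. The plasmacytoid limit counted a shorter set of genes than the list, without *Irf8* and *Ly6d*. It was chosen after seeing the data. Other alternatives changed the depth, the minimum of UMIs, the summing and the light chain limits. The genes named are the markers, the genes of the rule, the constant region genes, and the 10 highest and 10 lowest ratios of each comparison (15 for the Rag split) among genes with at least 100 UMIs, with UMIs in at least 20 cells for callus against intact, and others named for their role were chosen after their values were seen. A comparison of cells without and with light chain could not be made, with 4 and 6 cells without, so bins of light chain UMIs and the Rag split replace it. A few genes that the rule names are not reported here. The cells and the gene lists were chosen with earlier results of these data known. Promoters are RefSeq's and coding ends are from GENCODE M21 transcripts.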

Additional observations from a re-analysis of the deposited data

Results flagged for a closer look

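*Gsn*, which encodes an actin severing protein, and S100a6, a calcium binding protein, lay on opposite sides of pro-B and cycling pre-B cells in the libraries. The ratio of small pre-B and immature B cells to pro-B and cycling cells was 0.0717 for *Gsn* in the intact and 2.40 in the callus library. For S100a6 it was 0.130 and 2.40. The difference between the libraries was not tested. A few cells held most of these UMIs, since 3 cells held 93.2% of the *Gsn* UMIs of the callus small pre-B and immature cells and 90.4% of those of the intact pro-B and cycling cells. For S100a6 these shares were 70.0% and 96.9%. In the narrower set the callus ratio was 0.139 for *Gsn* and 0.139 for S100a6, on the same side as the intact library.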

How the results depend on the processing

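Of 106 values of 13 results under alternative settings, 88 stayed close to the value reported and 18 moved. Close means within 1.5 times for a count, and inside the counting interval of the reported value for a share or a ratio. With genes of at least 50 UMIs, the genes higher in the callus numbered 152 and the lower ones 78, those higher and lower than in mature cells 152 and 46, and those higher and lower than in pro-B and cycling cells 321 and 212, for which fewer genes were counted. The genes higher in the callus numbered 257 without cells over 3 times the median depth and 219 in the narrower set. With the mean of CPM per cell in place of summed UMIs, 361 genes were higher and 421 lower than in pro-B and cycling cells, so that lower genes outnumbered higher ones. The light chain share was 57.9% in the intact and 65.3% in the callus library from 20 UMIs, and 94.0% and 92.9% with light chain at 0.2% of UMIs or more, where the order of the libraries turned. The share with *Rag1* or *Rag2* was 18.7% and 19.5% from 2 UMIs, where the order of the libraries also turned, and 38.3% in the callus without thinning. The summed antigen presentation genes had a callus to intact ratio of 1.21, of 1.37 in the narrower set and of 1.30 there without cells with an *Ighd* or *Fcer2a* UMI. The cause of each move was not tested unless fewer genes or cells were counted. With 1 library a condition, no replicate could be left out and no paired analysis was possible because each group has a single sample. Shallow cells limit what can be seen of genes such as *Rag2*, with 14 and 9 UMIs.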

Other observations

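Up to 4 genes of several lists, picked by their UMI counts as the best measured, are given here as levels in the intact and the callus small pre-B and immature B cells. For B cell receptor signalling they were *Cd72* (871 and 432 CPM), *Syk* (563 and 515 CPM), *Ralgps2* (584 and 421 CPM) and *Blnk* (490.1 and 343 CPM). For the B-lineage transcription factors they were *Ebf1* (5207 and 3579.8 CPM), *Klf2* (2548 and 1889 CPM), *Mef2c* (750.4 and 743 CPM) and *Sox4* (716 and 713 CPM). For the receptor of interleukin 7 and its proliferation genes they were *Pim1* (438 and 436 CPM), *Il7r* (459 and 369 CPM), *Cdkn1b* (465 and 256 CPM) and *Jak1* (179.9 and 242 CPM). For marrow retention and homing they were *Rgs2* (607 and 598 CPM), *Cd69* (423 and 631 CPM), *Cxcr4* (358 and 219 CPM) and *Ccr7* (306 and 203 CPM). For the regulators of apoptosis they were *Mcl1* (628 and 603 CPM), *Tnfrsf13b* (205 and 205 CPM), *Tnfrsf13c* (172 and 197 CPM) and *Bax* (170.4 and 136 CPM), and those of the interferon response included *Ifi27l2a* (565 and 453 CPM), *Ifi203* (253 and 256 CPM) and *Trim30a* (72.7 and 95.8 CPM). In the narrower set, whose callus total holds fewer UMIs of other cells, *Ebf1* stood at 5250.4 and 4918 CPM.

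The other *Igkv* genes among the 10 with most UMIs were *Igkv1-110*, with 11 UMIs in the intact and 9 in the callus cells, *Igkv3-2* with 16 and 4, *Igkv12-89* with 8 and 6 and *Igkv17-127* with 11 and 0. Of heavy chain segments, *Ighv4-1* had 9 and 2 UMIs, *Ighv6-3* had 9 and 2, *Ighv2-2* had 5 and 2, *Ighv13-2* had 6 and 1, and *Ighv11-2* had 0 and 5. *Iglv3* had 21 and 11 UMIs and *Iglv2* had 10 and 1.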
